A study of Mus musculus with 4 samples.

Results

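The miRNAs of the imprinted Dlk1-Dio3 cluster were examined in exosomes released by BV2 cells, an immortalized mouse microglial line labelled WT (wild type). Members were taken by name, as every listed mature miRNA that carries 1 of 47 precursor numbers of the cluster, and 45 of the 603 listed names belonged to it, from 33 of those numbers. Small RNA had been sequenced in 4 libraries. The 2 control libraries came from dishes kept at 37 °C for 2 h. The 2 heatstroke (HS) libraries came from dishes heated to 42 °C for 2 h, followed by a 12 h return to 37 °C. That interval is taken from the study's methods, and its results give a shorter one. Cells are from 1 line, the labels do not say whether the replicates are separate cultures, and p-values then measure only the spread between these libraries, which may be technical. Each deposited value was a miRNA's reads over the size factor of its library, here called a normalized count, and the whole reads were recovered. Where 4 values follow each other, they stand in the order control 1, control 2, HS 1 and HS 2.

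The cluster lies on chromosome 12 of the mouse, in an imprinted domain between the protein-coding genes Dlk1 and Dio3. Its miRNAs are made from noncoding transcripts of the maternal chromosome, which include Meg3, the RNA antisense to Rtl1, Rian and Mirg, and they are processed out of long shared transcripts. They are known for high levels in brain, placenta, embryonic tissue and stem cells. A microRNA guides a silencing complex to messenger RNAs, mostly through the seed, its bases 2 to 8. The precursor forms a hairpin, and either of its arms, 5p or 3p, can give the mature miRNA.

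In GRCm38.p6, the RefSeq table places 57 miRNA hairpins in the 184 kb from Mir770 to Mir3072 (chr12:109563692-109747960), and 34 of them had at least 1 listed name. The 9 hairpins there whose number was not in the rule had 0 listed names. Of the 45 members, 41 matched the RefSeq table by name, and all 41 lay on chromosome 12, on the plus strand. The unmatched names were miR-376c-3p, miR-485-5p, miR-487b-3p and miR-539-3p. The members fell into 2 stretches. Between Meg3 and miR-370 there were 9, with 575 of the 1118 cluster reads, and between miR-379 and miR-410 there were 36, with the rest. By GENCODE M21, the precursors of miR-431, miR-433, miR-127 and miR-136 lie opposite an exon of Rtl1, a retrotransposon-derived gene of the minus strand that is read from the paternal chromosome, so these miRNAs are fully complementary to its RNA. The precursor of miR-370 lies in an intron of Rian. The precursors of miR-382, miR-134, miR-485, miR-377, miR-412, miR-369 and miR-410 overlap exons of Mirg, and those of miR-154, miR-496a, miR-541 and miR-409 lie in its introns.

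The mature sequences of the 10 members with the most reads, which carry 82.5% of the cluster's reads, and of miR-382-3p, which met the study's criterion below, are given 5′ to 3′ as RefSeq has them, with the seed in capitals.
miR-127-3p: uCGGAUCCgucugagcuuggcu
miR-381-3p: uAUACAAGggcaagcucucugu
miR-379-5p: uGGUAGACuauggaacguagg
miR-493-5p: uUGUACAUgguaggcuuuc
miR-370-3p: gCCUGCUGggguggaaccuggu
miR-654-3p: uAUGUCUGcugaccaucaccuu
miR-411-5p: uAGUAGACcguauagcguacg
miR-409-3p: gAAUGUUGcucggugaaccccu
miR-543-3p: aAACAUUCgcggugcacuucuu
miR-494-3p: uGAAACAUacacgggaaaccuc
miR-382-3p: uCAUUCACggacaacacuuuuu

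Although the hairpins stand side by side, their seeds were mostly different. The 41 members with a sequence had 40 distinct seeds, and the only shared one belonged to miR-379-3p and miR-411-3p. The seeds of miR-379-5p and miR-411-5p, whose hairpins are neighbours, differed at 1 base, as did those of miR-381-3p and miR-300-3p. No other listed miRNA with a RefSeq sequence shared a seed with a member. The median GC content was 45.5% over the 41 sequences and 50% over the 456 other listed names that had one.

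The most abundant member was miR-127-3p (chr12:109592888-109592909), which is made from the 3p arm of the hairpin below. The hairpin (chr12:109592846-109592915, plus strand, GRCm38.p6) is shown with its 5p and 3p mature arms in capitals, since reads of both were listed.
Mir127: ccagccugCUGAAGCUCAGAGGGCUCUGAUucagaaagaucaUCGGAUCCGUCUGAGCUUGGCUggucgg

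The main feature of the cluster was its absence from HS replicate 1. None of the 45 members had a read in that library. Control replicates 1 and 2 held 361 and 513 cluster reads, HS replicate 1 held 0 and HS replicate 2 held 244. Reads came from 29 and 38 members in the control libraries and from 31 in HS replicate 2. The listed miRNA reads of the libraries, in the same order, totalled 96516, 121503, 42091 and 113966. HS replicate 1 was the shallowest library, but at the mean control level its listed reads would have included 168 of the cluster. The same expectation for HS replicate 2 was 454 reads, against the 244 found.

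As a share of the listed reads, the cluster made up 0.374% of control replicate 1 (95% Wilson interval 0.337% to 0.415%) and 0.422% of control replicate 2 (0.387% to 0.460%). In HS replicate 1, 0 of 42091 reads allow a share of up to 0.00713%, the level of 3 reads. In HS replicate 2 the share was 0.214% (0.189% to 0.243%). Such intervals and limits describe counting error alone, because reads copied by PCR are not separate molecules. Both HS libraries therefore lay below both control libraries, with intervals that did not overlap. The mean share was 0.398% ± 0.0341 in the control group and 0.107% ± 0.151 in the HS group (SD, n = 2), a ratio of 0.269. The exact permutation test gave p = 0.333 (two-sided), the smallest that 2 libraries against 2 allow. Without HS replicate 1 the ratio was 0.538, and without HS replicate 2 it was at most 0.0179. The size of the difference was thus set by HS replicate 1, while HS replicate 2 alone lay nearer the control libraries. Without miR-127-3p the ratio of the other members was 0.255.

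**Figure D1:**
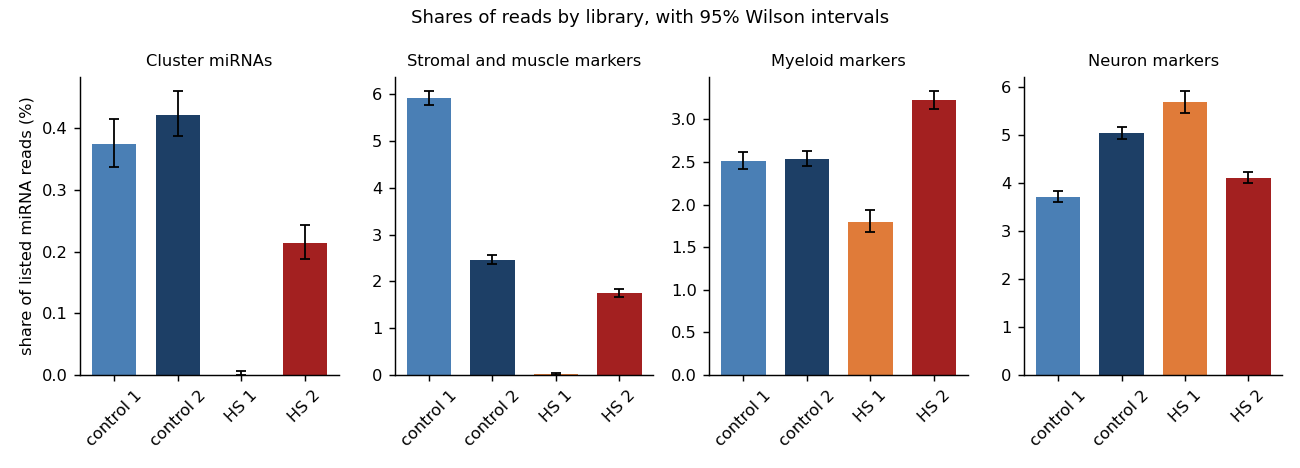
Share of the listed miRNA reads (%) held by the cluster miRNAs and by marker lists of stromal and muscle, myeloid and neuronal cells in each of the 4 libraries; bars are shares, and error bars are 95% Wilson intervals, or the limit of 3 reads where no read was found. The cluster is at 0 in HS replicate 1 and at 0.214% in HS replicate 2, below 0.374% and 0.422% in the control libraries.

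In bulk vesicle RNA, fewer vesicles of a type and less of a miRNA per vesicle cannot be told apart. The myeloid list of 10 names, which checks the labelled microglial cells, held 2.52%, 2.53%, 1.80% and 3.23% of the reads. Of its names, 10, 7, 5 and 8 were read. The defining marker miR-146a-5p had 1457, 2001, 533 and 2662 reads, and at the control level 532 were expected in HS replicate 1. MiR-142a-5p had 205, 281, 33 and 248 reads and miR-155-5p had 176, 188, 26 and 186, where 74.8 and 56.8 were expected in HS replicate 1, so both were lower there while still read. MiR-142a-3p had 17, 3, 0 and 3 reads, and miR-223-3p had 5, 2, 3 and 0. The stromal and muscle list, like the cluster, was lower in both HS libraries than in both control libraries. Unlike the cluster, it was higher in control replicate 1 than in control replicate 2. Its 14 names held 5.92%, 2.47%, 0.0190% and 1.75% of the reads, and 12, 13, 3 and 13 of them were read. Of its defining markers, miR-199a-3p had 2199, 1122, 0 and 735 reads, miR-145a-5p had 37, 21, 0 and 17, and miR-143-3p had 714, 305, 5 and 246. Its other defining markers had few reads. MiR-214-3p had 3, 11, 1 and 3 reads, where 2.06 and 7.51 were expected in HS replicates 1 and 2, so it was lower there too. MiR-133a-3p had 4, 2, 0 and 4 reads, where 0.972 and 3.54 were expected, so it was not lower in HS replicate 2. The neuron list, with miR-124-3p not among the listed names, held 3.71%, 5.04%, 5.68% and 4.11%. Most of its reads were of miR-128-3p, with 2535, 4287, 1544 and 3081. MiR-9-5p, its other defining marker, had 96, 189, 9 and 114 reads, where 43.1 and 157 were expected in HS replicates 1 and 2, so it was lower than the control level in both. The red cell and liver list held 0.114%, 0.267%, 0.368% and 0.268%. The part of the marker lists in the cluster's values was not tested.

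Some other miRNAs of chromosome 12 were present in HS replicate 1. The nearest listed names outside the cluster that had at least 10 reads were those of Mir342 and Mir345, at -905 and -727 kb from the start of Mir770. MiR-342-3p had 51, 30, 11 and 62 reads, and miR-345-3p had 16, 65, 26 and 86. Farther from the cluster, miR-1843a-3p had 21, 5, 0 and 0 reads and miR-203-3p had 3, 11, 0 and 9. Also farther away, miR-1843a-5p had 13, 62, 9 and 32 reads and miR-6538 had 26, 17, 18 and 39. HS replicate 1 thus lacked every listed name of the cluster, and some but not all other names of the chromosome.

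Other miRNAs were also missing from HS replicate 1. At the control level, 10 members were expected at 3 reads or more in HS replicate 1, and 10 of the 10 were at 0. Of the 229 other names with such an expectation, 66 were at 0, or 28.8%. At 10 expected reads or more, these were 2 of 2 members and 17 of 148 other names (11.5%), among them miR-199a-3p. In HS replicate 2, 21 members were expected at 3 reads or more, and miR-382-3p was the only one at 0, against 69 of 372 other names (18.5%).

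**Figure D2:**
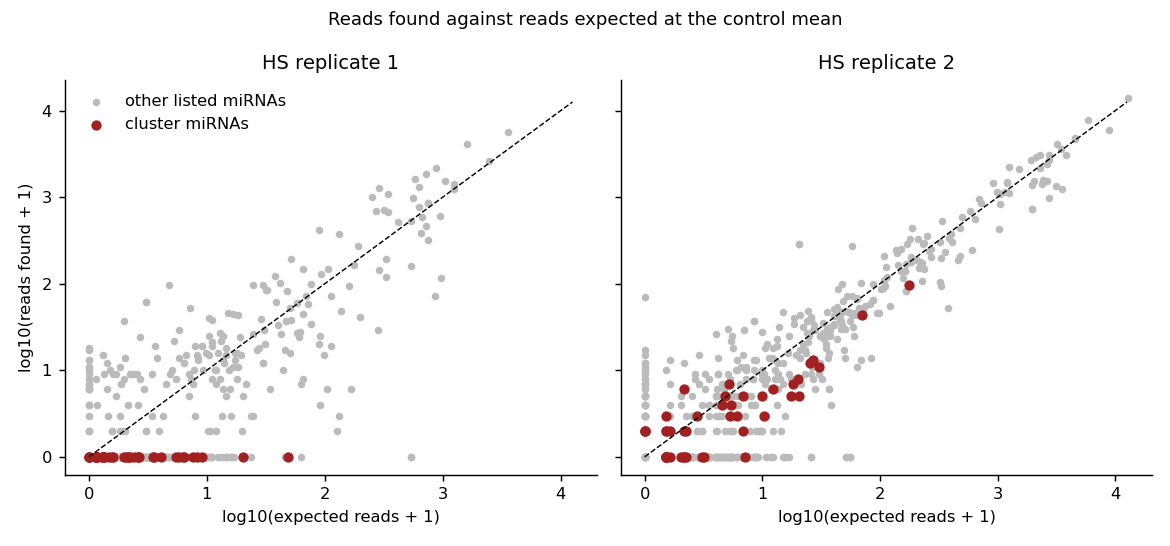
Reads found in each HS library against the reads expected from the mean level of the control libraries and the size factor, both as log10(reads + 1), for the cluster miRNAs and all other listed miRNAs; the dashed line marks equal values. In HS replicate 1 all 45 cluster miRNAs lie on the bottom axis, whereas in HS replicate 2 the most abundant ones lie close under the line.

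The members varied widely in level. They held 1118 reads in all, and miR-127-3p and miR-381-3p made up 51.3% of them. By reads summed over the libraries, these ranked 88 and 115 of the 603 listed names. The median member had 5 reads, against 16 for all listed names, and 10 members had a single read. The 21 members with at least 10 reads over the 4 libraries were tested. They passed that minimum on reads of the control libraries and HS replicate 2 alone. The other 24 had at most 9 reads each, and of these miR-487b-3p, with 1, 1, 0 and 5 reads, was the most abundant.

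Of the members between Meg3 and miR-370, miR-127-3p had 406 reads, 95 of them in HS replicate 2. Its normalized counts were 106 and 125 in the control group and 0 and 63.0 in the HS group. Both HS libraries were below both control libraries, and HS replicate 2 stood at 0.546 of the control mean. In HS replicate 1 the limit of 3 reads places it at least 15.9-fold under the control mean. On the log2(normalized count + 1) scale limma gave a change of -3.86 with a standard error of 2.17 (adjusted p = 0.617). Without HS replicate 1 this was -0.86 (standard error 0.29, adjusted p = 0.610).

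MiR-493-5p, the member nearest to Meg3 among those tested, had 18, 29, 0 and 12 reads in control replicates 1 and 2 and HS replicates 1 and 2. MiR-370-3p, from the Rian intron, had 16, 28, 0 and 11 reads in that order. In both, HS replicate 2 lay at less than 0.5 of the control mean (0.459 and 0.451) and the groups did not overlap. The remaining miRNAs antisense to Rtl1 had few reads. MiR-136-3p had 9, 7, 0 and 2 reads, and its groups did not overlap. MiR-431-5p had 0, 10, 0 and 2 reads and miR-433-3p had 0, 7, 0 and 3, so that both were missing from control replicate 1 as well and the groups overlapped. MiR-127-5p had 2, 5, 0 and 4 reads, and its groups overlapped too.

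Of the members between miR-379 and miR-410, miR-381-3p (chr12:109726870-109726891) was the most abundant. It had 51, 74, 0 and 42 reads, or 42.6, 50.2, 0 and 27.9 normalized counts. HS replicate 2 was at 0.601 of the control mean, and HS replicate 1 at least 6.40-fold under it. Limma gave a log2 change of -3.14 with a standard error of 1.80 (adjusted p = 0.621), and of -0.71 without HS replicate 1. MiR-379-5p, from the first hairpin of this stretch, had 29, 22, 0 and 10 reads, and HS replicate 2 was at 0.339 of the control mean. Its neighbour miR-411-5p had 15, 20, 0 and 4 reads.

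MiR-654-3p had 16, 18, 0 and 7 reads, miR-409-3p had 13, 18, 0 and 6, and miR-543-3p had 13, 16, 0 and 4. In all 3 the control libraries were close to each other (12.8 ± 0.830, 11.5 ± 0.943 and 10.9 ± 0.0154 normalized counts, SD, n = 2) and both HS libraries lay below them. MiR-494-3p had 14, 5, 0 and 5 reads, and its HS replicate 2 lay barely under control replicate 2 (3.32 against 3.39 normalized counts). MiR-369-3p had 7, 9, 0 and 4 reads. MiR-495-3p (2, 9, 0 and 4) and miR-323-3p (1, 7, 0 and 6) had HS replicate 2 between the control libraries. MiR-134-5p, known in neurons for limiting the growth of dendritic spines, had 2, 6, 0 and 2 reads. Both arms of miR-382 and miR-409-5p had 11 reads each, and miR-382-3p was the single tested member at 0 in both HS libraries, with 4 and 7 reads in the control libraries. The reads of miR-382-5p in every library were equal in number to those of miR-27b-5p, a miRNA outside the cluster.

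**Figure D3:**
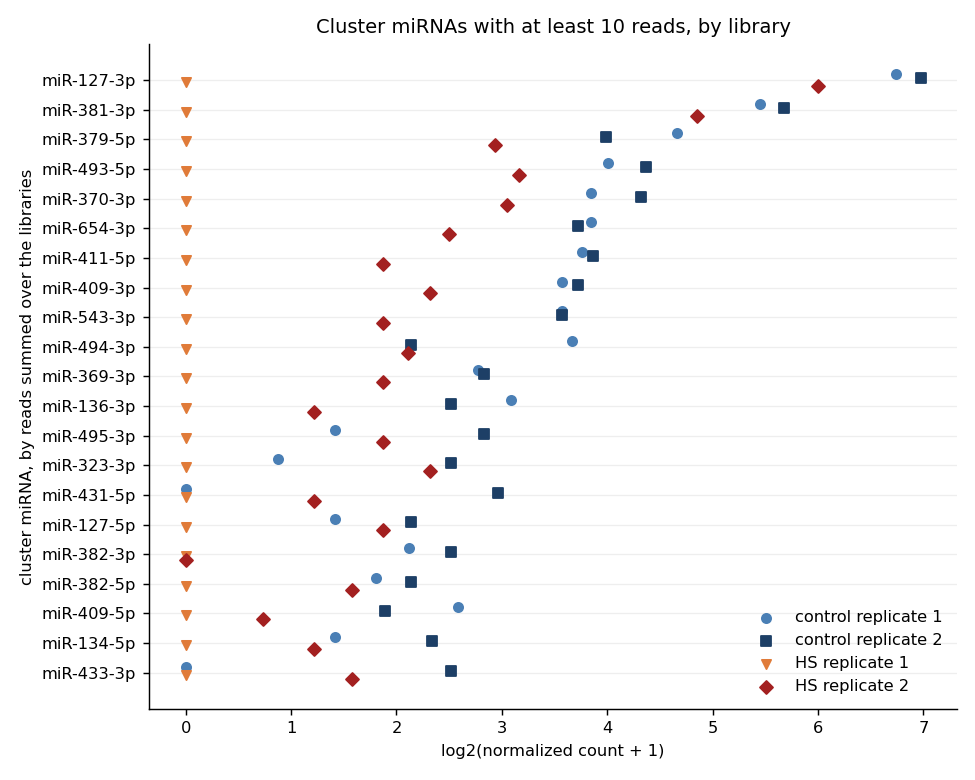
Values of the 21 cluster miRNAs with at least 10 reads in each of the 4 libraries, as log2(normalized count + 1), ordered by reads summed over the libraries. HS replicate 1 lies at 0 for every miRNA, and HS replicate 2 lies below both control libraries in 16 of the 21.

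The absence from HS replicate 1 ran from one end of the cluster to the other. The members between Meg3 and miR-370 held 47.9% of the cluster reads in control replicate 1 (95% Wilson interval 42.8% to 53.1%), 53.2% in control replicate 2 (48.9% to 57.5%) and 52.9% in HS replicate 2 (46.6% to 59.0%). The share in HS replicate 2 lay between those of the control libraries. An exact permutation test of this share set only HS replicate 2 against the control libraries and could not decide it, since HS replicate 1 has no cluster reads to give a share. MiR-127-3p took 35.2%, 35.9% and 38.9% of the cluster reads in these libraries, and miR-381-3p took 14.1%, 14.4% and 17.2%. The 2 stretches were thus present in about equal amounts in each library with reads. Over the 21 tested members, the Spearman correlation of reads was 0.72 between the control libraries, and 0.73 and 0.75 between HS replicate 2 and control replicates 1 and 2. The points share their libraries, and most have few reads.

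**Figure D4:**
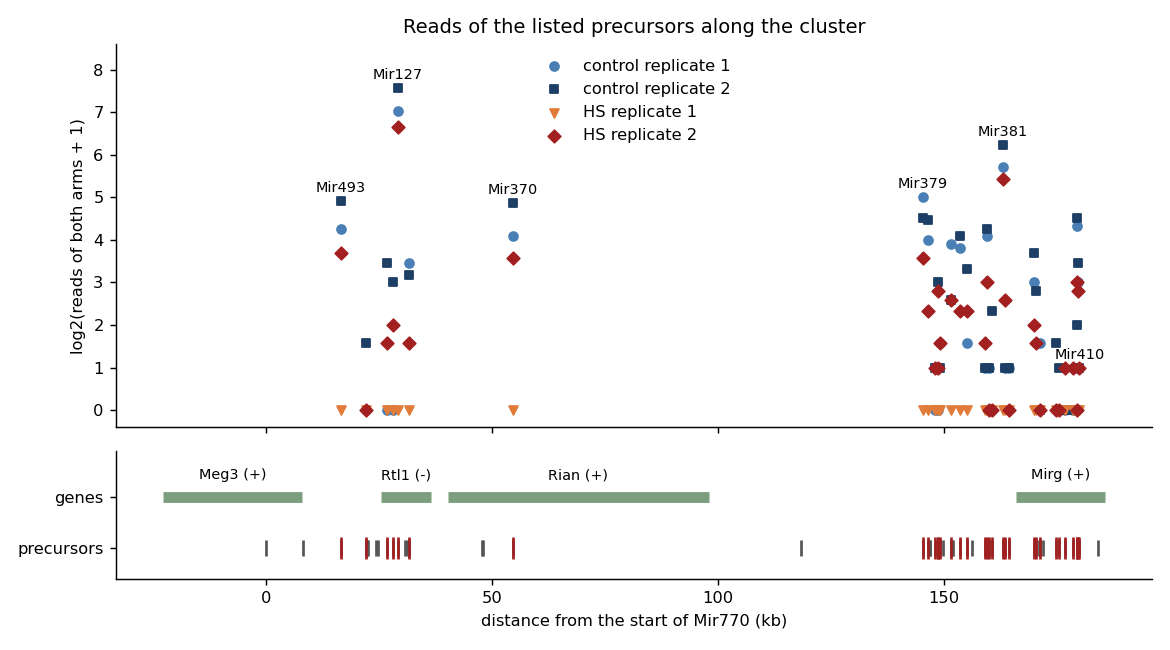
Reads of both arms as log2(reads + 1) for the 34 precursors with a listed name in each library, against the distance from the start of Mir770 in kb; below, the spans of 4 genes with their strand and all 57 hairpins, those with a listed name in red. Reads of HS replicate 1 are at 0 along the whole cluster, in the stretch around Mir127 and in that from Mir379 to Mir410.

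Both arms were listed for 11 precursors, and 7 of these had at least 10 reads. Arm use was uneven and differed by precursor. Over the 4 libraries, the 5p arm held 2.64% of the 417 reads of miR-127 (95% Wilson interval 1.48% to 4.66%), 22.9% of the 48 of miR-409 (13.3% to 36.5%), 13.0% of the 23 of miR-369 (4.54% to 32.1%) and 10% of the 20 of miR-136 (2.79% to 30.1%). It held 95.3% of the 64 reads of miR-379 (87.1% to 98.4%) and 97.5% of the 40 of miR-411 (87.1% to 99.6%). The arms of miR-382 had 11 reads each. Neighbouring hairpins with near-equal seeds, miR-379 and miR-411, thus used the same arm, while miR-127, miR-136, miR-369 and miR-409 used the other. Over all members, 3p names carried 79.2% of the reads.

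The groups were compared with limma over the listed miRNAs with at least 10 reads in all, which left out 227 of the 603 names. By the study's criterion, which asks for over 2-fold and for an unadjusted p below 0.05, 3 of the 21 tested members were lower in the HS group and 0 were higher. Of all tested miRNAs, 6.65% were lower and 1.6% were higher by this criterion, and with TMM scaling these were 21 and 9 miRNAs in place of 25 and 6. The 3 were miR-382-3p, miR-411-5p and miR-543-3p. After Benjamini-Hochberg adjustment over all tested miRNAs, 0 members had an adjusted p under 0.05 (0% of all tested), and the adjusted p-values of the members ran from 0.516 to 0.886. An unadjusted p under 0.05 was found for 3 members. The read counts gave no call either. On the recovered reads, edgeR (quasi-likelihood) and DESeq2 (Wald) each called 0 of the 21 members by the criterion, against 2.93% and 3.99% of all tested miRNAs that these called as lower, and 0 after adjustment.

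For miR-411-5p limma gave a log2 change of -2.88 with a standard error of 0.95 (adjusted p = 0.533), and HS replicate 2 stood at 0.203 of the control mean. The change of miR-543-3p was -2.63 with the same standard error (limma, adjusted p = 0.585), with HS replicate 2 at 0.244 of the control mean. For miR-382-3p the fitted value was -2.32 (limma, adjusted p = 0.516). Like the values of all members, which are at 0 in HS replicate 1, it depends on the pseudocount. No fold is given for miR-382-3p, because its control mean was 4.04 normalized counts. The limit of 3 reads in HS replicate 1 was higher, at 7.25 normalized counts. Because of that limit, 10 members had control levels at which a lower value in HS replicate 1 could be seen at all.

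The direction was the same for every tested member, with each log2 fold change below 0, from -3.86 to -0.47. Their median was -2.20, or -2.04 without miR-382-3p, beside -0.65 for all tested miRNAs. Since HS replicate 1 held no cluster read, this direction was in large part set by it. For the same reason the sizes depend on the pseudocount, and the median was -2.76 with 0.5 and -1.59 with 2. Both HS libraries lay below both control libraries for 16 of the 21 members, or 76.2%, and for 32.4% of all tested miRNAs. These 16 include members whose control mean is under the limit of 3 reads in HS replicate 1, such as miR-136-3p and miR-382-3p. HS replicate 2 on its own lay below both control libraries for those 16 (39.6% of all tested) and above both for 0 (25.5% of all tested). The 5 whose groups overlapped were miR-127-5p, miR-323-3p, miR-431-5p, miR-433-3p and miR-495-3p.

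Without HS replicate 1 the median of the members was -0.93, beside -0.17 for all tested miRNAs, and 18 of the 21 stayed below 0. The criterion was then met by 5 members, all lower in the HS library, and by 4.79% of all tested miRNAs in that direction. These were miR-382-3p, miR-411-5p, miR-543-3p, miR-409-3p and miR-654-3p, all from between miR-379 and miR-410. In that fit the single HS library is assumed to vary like the control libraries, and the smallest adjusted p of a member was 0.469. Without HS replicate 2, which leaves the library at 0, 13 members met the criterion as lower, beside 24.2% of all tested miRNAs. MiR-127-3p and miR-381-3p, the most abundant, had the smallest differences among the first 10 members in HS replicate 2, at 0.546 and 0.601 of the control mean, and the other 8 lay between 0.203 and 0.459. A difference between these members was not tested.

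**Figure D5:**
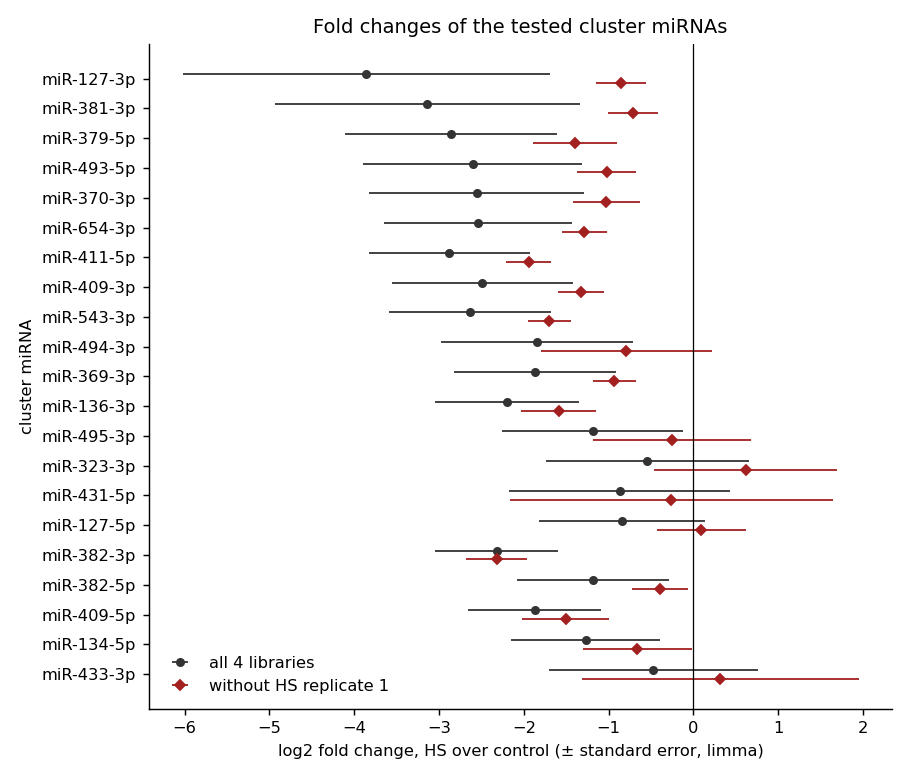
Log2 fold changes of the HS group over the control group from limma on log2(normalized count + 1), with standard errors, for the 21 tested cluster miRNAs with all 4 libraries and without HS replicate 1. All 21 are below 0 with 4 libraries, from -3.86 to -0.47, and 18 are below 0 without HS replicate 1.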

How the data were processed

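Per the labels, exosomal small RNA of BV2 cells was sequenced in 2 control and 2 HS libraries. According to the paper's methods, the authors removed adapters, low-quality reads and reads under 17 nt and mapped the rest with bowtie. Its version and the genome build are not given in the sources used here. The deposited signal column is headed RPKM, but 100% of its 1531 values above 0 were whole multiples of the library's smallest value (tolerance 1e-04), which equals the inverse of a median-of-ratios size factor to within 3.66e-05. Reads were recovered by that division.

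Members were matched by name, and they and all lists were chosen with earlier results of these data known. The group comparison, for which the study names a t-test, was run with limma 3.58.1 (R 4.3.3) on log2(normalized count + 1), without a replicate term, for miRNAs with at least 10 reads over the 4 libraries. P-values were adjusted over all miRNAs tested. EdgeR 4.0.16 and DESeq2 1.42.0 were run on the reads. The code of the fits was checked on simulated counts with known changes and a set spread that was not taken from these libraries. That check does not show how the fits perform on these libraries. Every member with at least 10 reads is named. Sequences are from RefSeq (GRCm38.p6) and gene spans from GENCODE M21. Tables were made with Python 3.11.15.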

Additional observations from a re-analysis of the deposited data

How the results depend on the processing

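The number of cluster miRNAs lower in the HS group by the criterion was 3 in limma. It was 2 with pseudocounts of 0.5 and 2, TMM scaling or total count scaling, 4 with no read minimum, and 3 with names of equal reads counted once. Among all miRNAs in these fits, 28 were lower with a pseudocount of 0.5 and 20 with a pseudocount of 2. TMM scaling gave 21 and total count scaling 23. With no read minimum, where every listed name entered, 33 were lower, and 21 with names of equal reads counted once. With at least 40 reads the number of cluster miRNAs was 0 by construction, since the 3 called in limma have 39, 33 and 11 reads and only 6 members were left. It was 0 with edgeR's quasi-likelihood test, with DESeq2, with a mean-variance trend and with the replicate block. Leaving out 1 library gave 1 to 13, with 1 without either control replicate, 13 without HS replicate 2 and 5 without HS replicate 1. In no setting was a member higher by the criterion, and none had an adjusted p under 0.05. Over all tested miRNAs, 25 were lower and 6 higher by the criterion, against 11 and 10 with edgeR, 15 and 14 with DESeq2, 15 and 6 with the trend, 14 and 5 with the replicate block, 7 and 1 with at least 40 reads, 18 and 16 without HS replicate 1 and 91 and 22 without HS replicate 2. Adjusted p-values of members ran from 0.102 to 0.998 over the settings. The median log2 fold change was -2.20 and was -0.81 with no read minimum, where 45 members of mostly few reads entered. With a pseudocount of 0.5 it was -2.76, and with a pseudocount of 2 it was -1.59. It ran from -2.81 to -0.93 when a library was left out, with -0.93 without HS replicate 1.

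The replicate numbers pair nothing in the labels, and deviations of same-numbered libraries correlated at -0.097 over the tested miRNAs. With the replicate block all 3 calls were lost. Fold changes of the 21 members turned positive only when a library was left out: miR-323-3p (-1.70 to 0.62), miR-431-5p (-2.35 to 0.61), miR-433-3p (-1.73 to 0.79) and miR-127-5p (-1.78 to 0.094), all without control replicate 2 or HS replicate 1. The share of the cluster stayed lower in the HS group in every setting tried. Leaving out a library could not change this, since both HS shares lay below both control shares. The share of the cluster reads from Meg3 to miR-370 differed by 2.30 percentage points between HS replicate 2 and the control mean, and this difference lay between -0.54 and 4.95 over the settings, and no value could be given without HS replicate 2. Depth limits HS replicate 1 most, where 3 reads are 7.25 normalized counts.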
